A study of Mus musculus with 2 samples.

Results

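Toll-like receptors (TLRs) were measured in microglia sorted from the mouse brain after sham surgery. The 10 genes described here are 8 receptors (Tlr1, Tlr2, Tlr3, Tlr4, Tlr6, Tlr7, Tlr9 and Tlr13), the co-receptor gene Cd14 and the adaptor gene Myd88. They were taken by name from the 53801 genes listed in each library. The naming used no value, although earlier results of these data were known when the set was chosen. The data are 2 RNA-seq libraries of 1 group, each from a single mouse, so no comparison between conditions was made. The mice were male, of C57BL/6 background and, per the labels, 8 to 10 weeks old, while the study's methods give an older range and both sexes. Their genotype was Cx3cr1(CreER/wt), in which a tamoxifen-inducible Cre takes the place of one Cx3cr1 allele, and no floxed gene was present. Both mice had received tamoxifen at 75 mg/kg daily for 4 days, and surgery followed 14 days after the first injection. The title gives sham while the treatment field reads none, and mice with stroke are not analysed here. Cells were taken 3 days after surgery from the left hemisphere and sorted as CD11c–Ly6G–CD11b+CD45low. The labels do not say whether the libraries were made in 1 batch.

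TLRs are receptors of innate immunity that bind molecules of microbes and of damaged cells. TLR1, TLR2, TLR4 and TLR6 act at the cell surface, whereas TLR3, TLR7, TLR9 and TLR13 act in endosomes, where they meet nucleic acids. The receptors signal through a cytoplasmic TIR domain that recruits adaptor proteins, of which MyD88 serves all mouse TLRs except TLR3. In the brain, microglia are a main site of TLR expression, and ischemic tissue releases proteins such as HMGB1 that can act on TLR2 and TLR4.

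Sham library 1 held 23381026 counts on genes and library 2 held 41142609, so at an equal level library 2 had the smaller counting error. Tlr3, Tlr7, Tlr9 and Tlr13 nevertheless had fewer counts in library 2 than in library 1. Levels are given as counts per 1000000 counts on genes (CPM). A count of 0 allowed a level of up to 0.128 CPM in the first and 0.0729 CPM in the second, and all 10 members lay above these limits. Both libraries carried the microglia identity that the labels give. The 10 microglia markers, among them Tmem119 and P2ry12, made up 3.52% of library 1 and 4.21% of library 2, and none was at 0. Sall1 was more than 2-fold lower in library 2 (337 and 146 CPM), and Tmem119 and Fcrls were lower by less, while 7 of the 10 were higher. Library 2 also held more RNA of genes that mark neutrophils. The 10 genes of immature neutrophils summed to 1699 and 31527 CPM, and the 9 genes of mature neutrophils to 3032 and 31681 CPM. All 10 of the first list and 8 of the 9 of the second were more than 2-fold higher in library 2, and none was at 0 in either library. Ly6g, which encodes the antigen used to exclude neutrophils, had 15.4 and 211 CPM. The 6 monocyte markers summed to 731 and 3512 CPM, with 3 of the 6 more than 2-fold higher in library 2 and none at 0. Most of the difference in the sum came from Chil3, with 455 and 2901 CPM. Ccr2 had 65.1 and 76.3 CPM, and Plac8 (63.7 and 56.7 CPM) and Vcan (2.48 and 1.56 CPM) were lower in library 2. The 7 border macrophage markers had sums of 709 and 338 CPM, and none was at 0. Of the 7, 3 (Mrc1, F13a1 and Cd163) were more than 2-fold lower in library 2, and 1, Ms4a7, was higher (47.4 and 59.0 CPM). Their median log2 ratio of library 2 to library 1 was −0.41, against −0.26 for all genes with at least 10 counts in each library. Of all such genes, 5.74% were more than 2-fold higher and 25.9% more than 2-fold lower in library 2. Neutrophils and monocytes are known to express several TLR genes and Cd14, so these values stand beside the results below, and their part in them was not tested. In sorted bulk samples, fewer cells of a type and less RNA per cell cannot be told apart.

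Markers of other immune cells that use TLRs were uneven. Among B cell genes, Pax5 had 0 and 1 count, Ms4a1 4 and 21 counts and Cd79a 7 and 56 counts in libraries 1 and 2, whereas Cd79b had 52.1 and 55.4 CPM and the immunoglobulin gene Ighm 517 and 720.2 CPM. All 5 were higher in library 2, and their part in the results was not tested. The 6 dendritic cell markers summed to 80.7 and 63.5 CPM, with Cd209a at 52.4 and 49.1 CPM, in the range of Tlr1, and Itgax, the gene of CD11c, at 14.2 and 3.94 CPM. The 4 plasmacytoid dendritic cell markers summed to 13.6 and 10.1 CPM, with Klk1 at 0 in both libraries. The 6 T cell markers summed to 4.62 and 5.61 CPM. Of these, Cd3e and Cd8a were at 0 in both libraries, Cd3g at 0 in library 1 and Trac at 0 in library 2. Cd3d had 3 and 109 counts in libraries 1 and 2, or 0.128 and 2.65 CPM. Cd4 was lower in library 2, with 4.45 and 2.80 CPM. Markers of astrocytes, endothelial cells, neurons and oligodendrocytes summed to 224, 23.2, 2.69 and 101 CPM in library 1 and to 177, 17.2, 5.15 and 111 CPM in library 2. Of these 24 genes, Gad1 was at 0 in library 1 and Cldn11 at 0 in library 2.

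The members differ in what their sequence allows a count to show. Tlr1 (chromosome 5 of GRCm38, 64924679 to 64933563, minus strand) and Tlr6 (chromosome 5, 64952031 to 64960097, minus strand) are neighbours and close relatives. Their longest transcripts share 10 identical runs of at least 20 bases, 899 bases in all, and each of these 10 runs lies in the coding part of both. Of all stretches of 75 bases, the read length of the study, 340 were common to both genes, which is 11.5% of those of Tlr1 and 9.44% of those of Tlr6. A read that falls wholly inside such a stretch cannot by itself be assigned to one of them, so the counts of Tlr1 and Tlr6 are uncertain to that extent. The 2 longest shared runs, both over 200 bases, show how much of a read pair they can hold. The first lies at chr5:64925537-64925765 in Tlr1 and at chr5:64953828-64954056 in Tlr6, and the second at chr5:64925291-64925498 and chr5:64953582-64953789, both on the minus strand and written 5′ to 3′ from GENCODE M21.
Tlr1 and Tlr6, shared run of 229 bases: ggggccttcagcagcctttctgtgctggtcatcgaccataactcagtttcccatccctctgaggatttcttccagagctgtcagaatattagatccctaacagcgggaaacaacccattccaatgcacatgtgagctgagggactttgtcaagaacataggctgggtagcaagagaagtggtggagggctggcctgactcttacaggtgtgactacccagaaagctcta
Tlr1 and Tlr6, shared run of 208 bases: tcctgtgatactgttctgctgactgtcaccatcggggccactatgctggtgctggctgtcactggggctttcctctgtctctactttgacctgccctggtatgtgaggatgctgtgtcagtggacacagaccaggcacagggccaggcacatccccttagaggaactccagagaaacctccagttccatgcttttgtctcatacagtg

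No stretch of 75 bases of Tlr2, Tlr4, Tlr7, Tlr9, Tlr13 or Cd14 occurred in the transcripts of another gene. Tlr3 and Myd88 overlap genes on the opposite strand. The exons of Gm45542 cover 381 of the 5207 exonic bases of Tlr3, and those of Acaa1a cover 290 of the 2576 exonic bases of Myd88. The library kit does not mark strand, so reads from these overlaps cannot be told apart by strand. Most of the receptor sequence lies in single exons: the largest exon block held 96.9% of the exonic bases of Tlr9, 95.6% of Tlr6 and 88.3% of Tlr13, against 37.5% of Myd88.

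Each surface receptor differed less than 2-fold in CPM between the mice, and Tlr2 was the highest of them. Tlr2 (chromosome 3, 83836272 to 83841767), the receptor for lipoproteins, had 4808 and 8535 counts in libraries 1 and 2, or 206 and 207 CPM. Its mean was 207 ± 1.28 CPM (SD, n = 2 libraries), the narrowest of the 10 in CPM. This rested on the scaling to file totals. The log2 ratio of library 2 to library 1 for Tlr2 was 0.01 in CPM but 0.26 with TMM. Under TMM those of Tlr4 (−0.17) and Tlr1 (−0.24) were smaller in size. Tlr1, whose product pairs with TLR2 to bind triacylated lipopeptides, had 1375 and 1724 counts, or 58.8 and 41.9 CPM. Tlr6, which pairs with TLR2 for diacylated lipopeptides, had 1015 and 1201 counts, or 43.4 and 29.2 CPM. Tlr2 was thus the highest of these 3 in each library, and its partners were both lower in library 2. Per base of exon, the level of Tlr2 was 3.88 times that of Tlr1 in library 1 and 5.50 times in library 2, and 5.86 and 8.79 times that of Tlr6. The ratio of Tlr1 to Tlr6 on the same scale was 1.51 and 1.60.

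Tlr4 (chromosome 4, 66827584 to 66930284), the receptor for lipopolysaccharide, had 2795 and 3682 counts, or 119.5 and 89.5 CPM, a mean of 105 ± 21.2 CPM (SD, n = 2). Cd14 (chromosome 18, 36725074 to 36726736), whose product hands lipopolysaccharide to TLR4, was the most abundant of the 10 genes. It had 17894 and 50801 counts, or 765 and 1235 CPM, a mean of 1000.04 ± 332 CPM (SD, n = 2). Cd14 and Tlr4 thus differed in opposite directions, Cd14 being 1.61-fold higher and Tlr4 1.34-fold lower in library 2. Per base of exon, Cd14 stood at 20.5 times Tlr4 in library 1 and 44.3 times in library 2. Ly96, which encodes the lipopolysaccharide-binding partner of TLR4, had 34.6 and 63.4 CPM and, like Cd14, was higher in library 2. The ratio of Cd14 to Ly96 per base of exon was 13.02 and 11.5, while that of Ly96 to Tlr4 was 1.58 and 3.85.

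The endosomal receptors varied more, and each was lower in library 2. Tlr13 (chromosome X, 106143204 to 106160493), a receptor for bacterial ribosomal RNA that humans lack, had 8018 and 6024 counts, or 343 and 146 CPM. Tlr7 (chromosome X, 167304929 to 167330558), the receptor for single-stranded RNA, had 4577 and 4569 counts, or 196 and 111 CPM. Both X-linked receptors exceeded Tlr3 and Tlr9 in each library. Tlr3 (chromosome 8, 45395665 to 45411080), the receptor for double-stranded RNA, had 2137 and 1406 counts, or 91.4 and 34.2 CPM. Tlr9 (chromosome 9, 106222598 to 106226883), the receptor for unmethylated CpG DNA, had 289 and 154 counts, the fewest of the 10. These gave 12.4 CPM in library 1 (exact 95% Clopper-Pearson interval 11.0 to 13.9) and 3.74 CPM in library 2 (3.18 to 4.38). Such intervals cover counting error only. They take reads as independent, which amplified reads are not, so they can be too narrow even for that error. The 4 endosomal receptors together had 642 and 295 CPM, and the 4 surface receptors 427 and 368 CPM, so the endosomal sum was the larger in library 1 and the smaller in library 2.

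Myd88 (chromosome 9, 119335934 to 119341411), the shared adaptor, had 3751 and 7692 counts, or 160.4 and 187 CPM, a mean of 174 ± 18.8 CPM (SD, n = 2). Its log2 ratio of library 2 to library 1 was 0.22 in CPM, but 0.47 with TMM, close in size to that of Tlr7 (−0.57) under the same scaling. The summed level of all 10 genes came to 1996 CPM for library 1 and 2085 CPM for library 2, so the sums were close while the shares of the members differed.

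**Figure D1:**
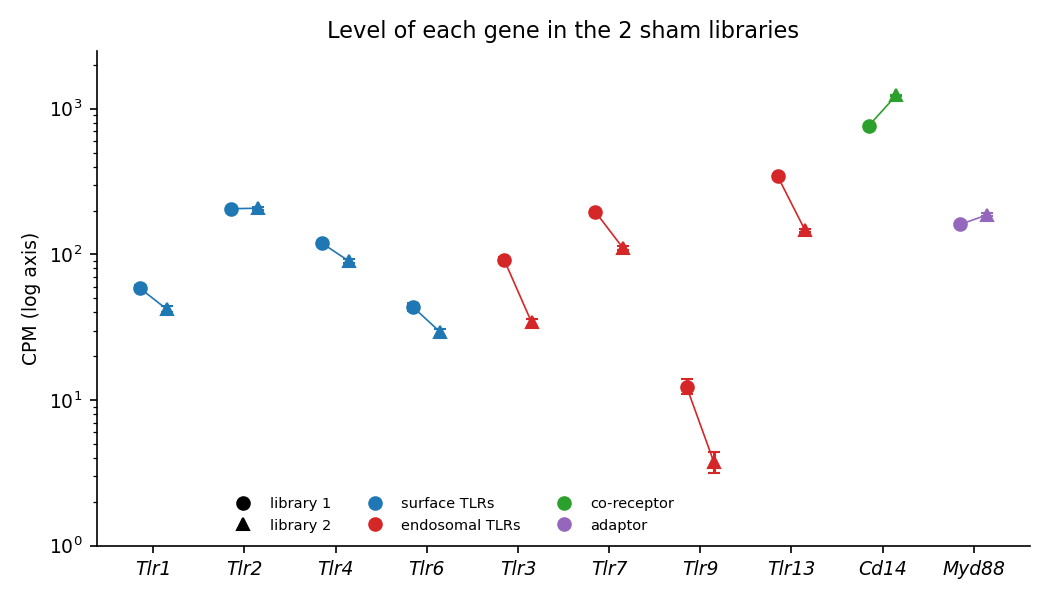
CPM on a log axis of the 10 genes in sham library 1 (circles) and library 2 (triangles), with exact 95% intervals for counting error as bars and lines joining the libraries of a gene. Tlr2 stood at 206 and 207 CPM, each endosomal receptor (red) was lower in library 2, and Cd14 (green) was the highest gene in both.

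Levels of different genes were compared per base of exon, as CPM divided by the exon length of the gene and rescaled to 1000000 over all genes (per-length level). On this scale Cd14 had 1257 in library 1 and 1634 in library 2, above 99.3% and 99.5% of the genes that reached 10 counts in each library. The order by mean was Cd14, Tlr2, Myd88, Tlr13, Tlr7, Tlr4, Tlr1, Tlr3, Tlr6 and Tlr9. Cd14 lay apart from Tlr2, whose per-length levels were 194 and 158, with no overlap of the libraries. Tlr2, Myd88 (177 and 166) and Tlr13 (227 and 78.0) could not be ordered beyond their spread. Tlr7, with 136 and 62.3, overlapped Tlr13 above it. It stayed just clear of Tlr4 below it, which had 61.2 and 36.9. Tlr4, Tlr1, Tlr3 and Tlr6 formed a run in which each overlapped the next, Tlr1 having 49.99 and 28.7, Tlr3 49.9 and 15.04, and Tlr6 33.1 and 17.9. Tlr9 came last with 10.1 and 2.47 and did not overlap Tlr6. Of the 9 neighbouring pairs in this order, 6 overlapped and 3 did not. Tlr9 exceeded 45.7% and 30.1% of the counted genes in libraries 1 and 2, and Tlr2 94.9% and 94.8%.

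The composition of the family does not depend on a scaling factor shared by all genes of a library. It still carries the trends over transcript length and GC content given below, and any RNA of neutrophils and monocytes. Their part in the shares was not tested. Cd14 took 57.2% of the summed per-length level of the 10 genes in library 1 and 74.3% in library 2. The surface receptors took 15.4% and 11.0%, and the endosomal receptors 19.3% and 7.18%. Myd88 held 8.07% and 7.56%. Tlr13 was the largest endosomal share in both libraries, at 10.3% and 3.54%. Within the endosomal group, the ratio of Tlr13 to Tlr7 was 1.66 and 1.25 and that of Tlr13 to Tlr3 was 4.54 and 5.18, whereas that of Tlr7 to Tlr9 was 13.5 and 25.3.

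**Figure D2:**
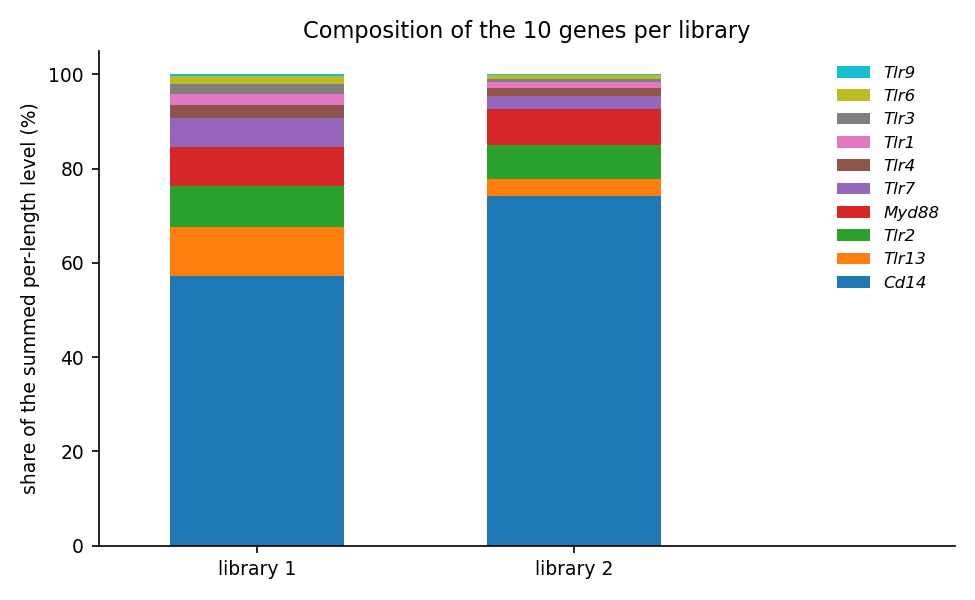
Share of each gene in the summed per-length level of the 10 genes (percent, bars from 0 to 100) in the 2 sham libraries. Cd14 at the base took 57.2% in library 1 and 74.3% in library 2, and Tlr13 above it 10.3% and 3.54%.

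The spread between the mice was then set beside that of all genes. Among the 13445 genes that reached 10 counts in each library, called counted genes, 31.7% differed more than 2-fold in CPM, 25.9% being lower and 5.74% higher in library 2. Of the 10 members, 3 differed more than 2-fold, all lower in library 2: Tlr9 (log2 ratio of library 2 to library 1 −1.72), Tlr3 (−1.42) and Tlr13 (−1.23). This share is near that of all counted genes and is no result about the members as a set. The median log2 ratio was −0.53 for the 10 members and −0.26 for all counted genes. The 3 called genes are 3 of the 4 endosomal receptors, and the other, Tlr7, had −0.82. No surface receptor passed 2-fold, their values being −0.57 for Tlr6, −0.49 for Tlr1, −0.42 for Tlr4 and 0.01 for Tlr2. Cd14 had 0.69 and Myd88 0.22. With reads taken as independent, counting error was small beside most of these values. The exact 95% interval of the log2 ratio was −2.02 to −1.44 for Tlr9, the widest, and it held 0 for Tlr2 alone (−0.04 to 0.06). With 1 group there is no test of a condition here, and these ratios measure how 2 mice, or their libraries, differed. Over all genes, the common biological coefficient of variation by edgeR was 0.479.

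Which members pass 2-fold depended on the scaling. Of the 7 scalings tried, all but the GC and length adjustment shift every ratio by the same amount and so cannot change their order. With TMM or DESeq2 size factors, which brought the median of all counted genes to −0.01 and 0.01, Tlr13 had −0.98 and −0.95 and no longer passed, while Tlr9 (−1.47 and −1.45) and Tlr3 (−1.17 and −1.14) still did. With totals that leave out both neutrophil lists, Tlr9 (−1.64), Tlr3 (−1.33) and Tlr13 (−1.14) all passed. Relative to the summed microglia markers, Tlr7 passed as well with −1.08, and Tlr2 and Myd88 changed sign to −0.25 and −0.04. Cd14 stayed positive in all 7 scalings, from 0.43 to 0.96, and the 4 endosomal receptors stayed negative.

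**Figure D3:**
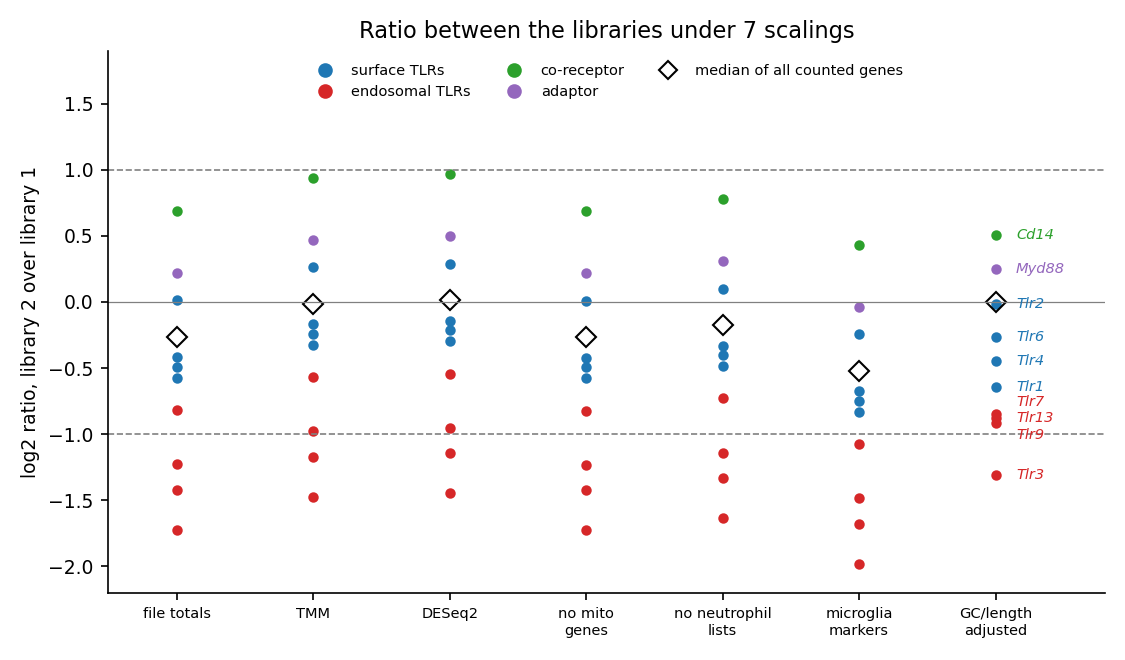
Log2 ratio of library 2 to library 1 for each of the 10 genes under 7 scalings, with diamonds for the median of all counted genes and dashed lines at 2-fold. Endosomal receptors (red) lie below the surface receptors (blue) in each column, and Tlr3 is the one gene below −1 in all 7.

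Transcript length and GC content went with the ratio between the libraries. The median log2 ratio was 0.17 in the third of 10 length bins, with longest transcripts of 1657 to 2143 bases, and −1.05 in the longest bin, from 6443 bases. The share of genes more than 2-fold lower in library 2 rose over the same bins from 10.5% to 52.6%. Over 10 bins of GC content the median was −0.13 in the lowest and −0.64 in the highest. TLR transcripts are long: the longest transcripts of the 8 receptors spanned 3014 to 4407 bases, against 2458 for Myd88 and 1641 for Cd14. Their medians by length bin alone ran from −0.05 (Tlr1 and Tlr2) over −0.29 (Tlr9) and −0.49 (Tlr4, Tlr6, Tlr7 and Tlr13) to −0.77 (Tlr3). In joint bins of GC content and length the median was −0.81 for Tlr9, against −0.11 for Tlr3. After this joint median was subtracted, Tlr3 had −1.31 and was the only member past 2-fold. Tlr9 then had −0.91, Tlr13 −0.88 and Tlr7 −0.84, still below each surface receptor, which ranged from −0.64 for Tlr1 to −0.02 for Tlr2. Cd14 had 0.50 and Myd88 0.25. The part of length and of GC content in these ratios was not tested.

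**Figure D4:**
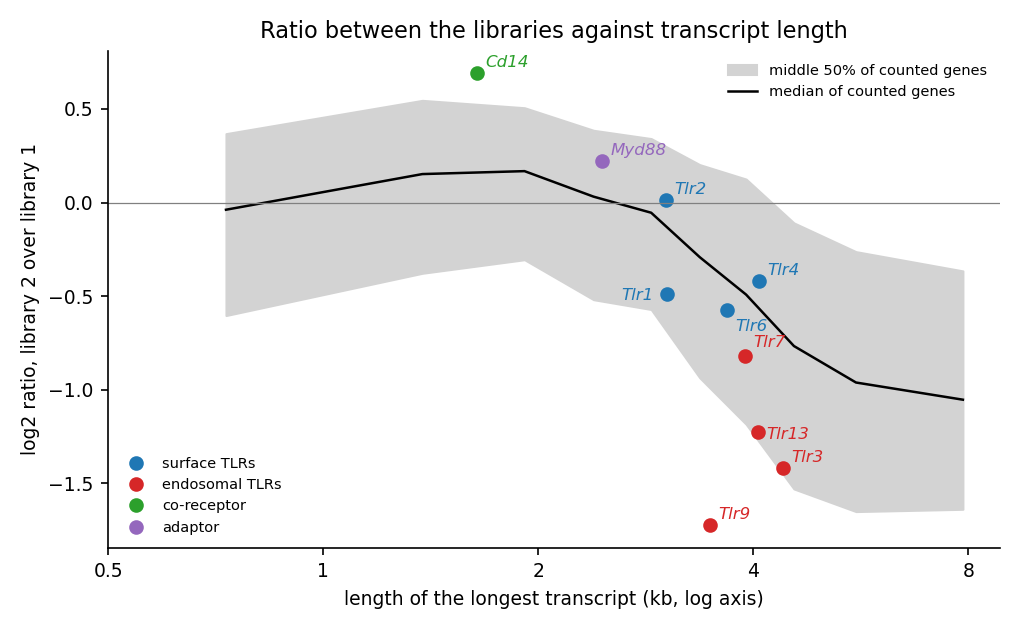
Log2 ratio of library 2 to library 1 against the length of the longest transcript (kb, log axis). The line and grey band give the median and the middle 50% of counted genes in 10 length bins, falling to −1.05 in the longest, and points are the 10 genes, with Tlr9 below and Cd14 above the band.

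Promoter sequence was at hand in RefSeq (GRCm38.p6) for 7 of the 10 members, with 9 start sites, and not for Tlr4, Tlr7 and Cd14. Starts here are those of RefSeq. The windows of Tlr3 and Myd88, and a window each of Tlr1 and Tlr6, lie inside the gene span of GENCODE M21. The 250 bases before each start were searched on both strands for GAGGAA, which PU.1 and other ETS factors bind, for GGGANNNNCC (NF-κB), for GAAANNGAAA (interferon response) and for TGANTCA (AP-1). GAGGAA was found before Tlr1, Tlr9 and Tlr13, in 3 of 9 windows against 23.3% of all 32851 windows. GGGANNNNCC was found before Tlr2 and Tlr3, 2 of 9 against 17.6%. GAAANNGAAA was found before Myd88 and Tlr6, 2 of 9 against 2.98%, with 2 overlapping matches at Tlr6, in windows inside the gene span. TGANTCA was found before Tlr9, 1 of 9 against 6.75%. The same letters read on the opposite strand count once where they are their own reverse complement. A match describes letters and not a bound site.

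The stretches before the RefSeq starts of 5 members are printed. Tlr3, Tlr9 and Tlr13 were taken as more than 2-fold lower in library 2 in CPM, and Tlr2 and Myd88 for CPM ratios nearest to 1. By the gene models of GENCODE M21, the stretches of Tlr3 and Myd88 lie inside the gene, between its exons. Each runs 5′ to 3′, is limited to bases outside the exons of the gene in GENCODE M21, and has the matches in capitals. They lie at chr9:106222348-106222597 (Tlr9, plus strand), chr8:45410381-45410452 (Tlr3, minus strand), chrX:106143025-106143203 (Tlr13, plus strand), chr3:83841768-83841858 (Tlr2, minus strand) and chr9:119340042-119340268 (Myd88, minus strand).
Tlr9: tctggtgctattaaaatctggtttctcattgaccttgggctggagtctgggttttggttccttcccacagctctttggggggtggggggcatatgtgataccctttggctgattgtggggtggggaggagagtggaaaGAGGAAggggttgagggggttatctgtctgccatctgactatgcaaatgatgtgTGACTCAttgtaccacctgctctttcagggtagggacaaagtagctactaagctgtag
Tlr3: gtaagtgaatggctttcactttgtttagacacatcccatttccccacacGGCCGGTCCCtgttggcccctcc
Tlr13: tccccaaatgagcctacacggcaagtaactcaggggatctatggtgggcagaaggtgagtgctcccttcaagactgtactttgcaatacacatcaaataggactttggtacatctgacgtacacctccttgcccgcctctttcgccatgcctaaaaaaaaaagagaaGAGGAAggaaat
Tlr2: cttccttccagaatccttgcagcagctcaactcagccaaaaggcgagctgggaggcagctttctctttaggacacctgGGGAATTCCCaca
Myd88: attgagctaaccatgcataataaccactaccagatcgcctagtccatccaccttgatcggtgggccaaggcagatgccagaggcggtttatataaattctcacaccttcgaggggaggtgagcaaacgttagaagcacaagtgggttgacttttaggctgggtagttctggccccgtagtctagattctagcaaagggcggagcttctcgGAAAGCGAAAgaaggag

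GAGGAA lies 112 bases before the start of Tlr9 and 83 before that of Tlr13, and TGACTCA 58 before Tlr9. In Tlr2 the 10-base match begins 172 bases before the start, and in Myd88 40 bases before it. In Tlr3 the printed match begins 23 bases before the start, and another, 211 bases before it, lies in an exon. Tlr3 had the NF-κB letters as Tlr2 did and no GAGGAA, and Tlr1, with a log2 ratio of −0.49, had GAGGAA. Tlr4, Tlr7 and Cd14 were not searched, and a link between the motifs and the ratios was not tested.

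The rest of the pathway was read from lists chosen by role. Of 55 other genes, 54 were counted, of which 5 were more than 2-fold higher and 16 more than 2-fold lower in library 2, beside 5.74% and 25.9% of all counted genes. Their median log2 ratio was −0.48. With TMM these counts were 8 and 11, and after the GC and length adjustment 7 and 6. The shares of 5.74% and 25.9% also stand beside each list that follows.

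Of the other TLR genes, Tlr12 was the highest per base of exon, with per-length levels of 53.6 and 17.2. Tlr12, which recognises profilin of parasites, had 59.9 and 23.9 CPM, and Tlr5, the flagellin receptor, had 32.7 and 7.46 CPM, log2 ratios of −1.33 and −2.13. Tlr8 had 4.92 and 2.94 CPM. Tlr11, the partner of TLR12, had 8 and 38 counts and was the one gene of the lists below 10 counts in a library. Both Tlr5 and Tlr12 were more than 2-fold lower in library 2, and Tlr8 with −0.74 was not. After the GC and length adjustment Tlr5 had −1.67 and Tlr12 had −0.52, which no longer passed.

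Among co-receptor genes other than Cd14, Ly86 was the most abundant with 1418 and 1308 CPM. It encodes the partner of the TLR-like protein CD180, whose gene Cd180 had 41.8 and 35.8 CPM. Cd36, a scavenger receptor that assists TLR2, had 12.2 and 19.03 CPM. Lbp, the gene of the lipopolysaccharide-binding protein, had 65 and 1498 counts, or 2.78 and 36.4 CPM, a log2 ratio of 3.71 and the largest in the pathway lists. Ly96 had 0.87. Of these genes only Lbp passed 2-fold in CPM. Ly96 passed with TMM (1.12) but not after the GC and length adjustment (0.86).

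Of 5 chaperone and trafficking genes of TLRs, 1 passed 2-fold. Unc93b1, which escorts endosomal TLRs from the endoplasmic reticulum, had 2646 and 2590 CPM, a log2 ratio of −0.03, where each endosomal receptor had −0.82 or less. Per base of exon, Unc93b1 stood at 11.0 times Tlr13 in library 1 and 25.1 times in library 2. Hsp90b1, the chaperone gp96, had 622 and 455 CPM, its cofactor gene Cnpy3 303 and 267 CPM, and Cnpy4 22.8 and 21.3 CPM. Tmed7, a trafficking gene, had 152 and 27.0 CPM, a log2 ratio of −2.50. Its exons share 838 bases with those of Ticam2, so these counts are uncertain.

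The other TIR adaptors stood below Myd88 per base of exon. Tirap, which bridges TLR2 and TLR4 to MyD88, had 24.9 and 33.9 CPM, and Ticam2, the bridge from TLR4 to TRIF, had 49.6 and 34.7 CPM. The log2 ratio of Tirap was 0.44 in CPM and 0.69 with TMM, and it passed 2-fold after the GC and length adjustment (1.06). Ticam1, which encodes TRIF, the adaptor of TLR3, had 32.2 and 16.3 CPM, a log2 ratio of −0.98. The per-length level of Myd88 was 5.79 times that of Ticam1 in library 1 and 13.3 times in library 2, and 12.3 and 10.6 times that of Tirap. Sarm1, an inhibitory TIR protein, had 94 and 75 counts, a log2 ratio of −1.14, and Pik3ap1, a TIR protein that links TLRs to PI3K, had 286 and 84.1 CPM, a log2 ratio of −1.76. Neither passed after the GC and length adjustment, with 0.52 for Sarm1, whose direction turned, and −0.82 for Pik3ap1, and Sarm1 did not pass with TMM (−0.89).

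Downstream, 2 of 9 kinases were more than 2-fold lower in library 2, Irak1 (143 and 35.8 CPM) and Map3k7, which encodes TAK1 (36.2 and 6.49 CPM), and Irak2 had the highest per-length level of that list. The kinase gene Ikbke had 40 and 136 counts, and its log2 ratio of 0.95 did not pass 2-fold in CPM. Ikbke passed, higher in library 2, with TMM and after the GC and length adjustment (2.03). Of 9 ubiquitin ligases and TAK1 partners, 5 were more than 2-fold lower: Traf6 (32.0 and 8.99 CPM), Traf3 (21.2 and 9.04), Peli2 (35.5 and 11.5), Tab1 (59.5 and 19.01) and Tab3 (9.02 and 3.21). After the GC and length adjustment only Tab1 still passed (−1.03), while Tab3 had −0.97, Traf6 −0.85, Peli2 −0.64 and Traf3 0.16, and Traf3 did not pass with TMM (−0.98). Peli1 was the highest of them per base of exon. Of 6 transcription factors, Rela (257 and 125 CPM) and Irf7 (84.0 and 37.0 CPM) passed 2-fold, both lower. Neither passed with TMM (−0.78 and −0.93) or after the GC and length adjustment (−0.42 and −0.37). Irf5, a factor that binds MyD88, was the highest per base with 599 and 539.5 CPM. The inhibitors divided: Tnip1 (21.8 and 3.38 CPM) and Tnfaip3, the gene of A20 (104 and 46.2 CPM), were lower, while Irak3 (9.67 and 21.9 CPM) and Sigirr (27 and 102 counts) were higher. Tnfaip3 did not pass with TMM (−0.93) or after the GC and length adjustment (−0.20). Nfkbia, the gene of the NF-κB inhibitor IκBα and the highest of that list per base, had 740 and 1475 CPM. Its log2 ratio of 1.00 did not pass 2-fold in CPM. It passed with TMM (1.25) but not after the GC and length adjustment (0.81). Of the endogenous ligands, Hmgb1 had 120.1 and 183 CPM. S100a8 and S100a9, which encode the TLR4 ligand calprotectin and are also in the mature neutrophil list, had 1396 and 14266 CPM and 1132 and 12075 CPM.

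**Figure D5:**
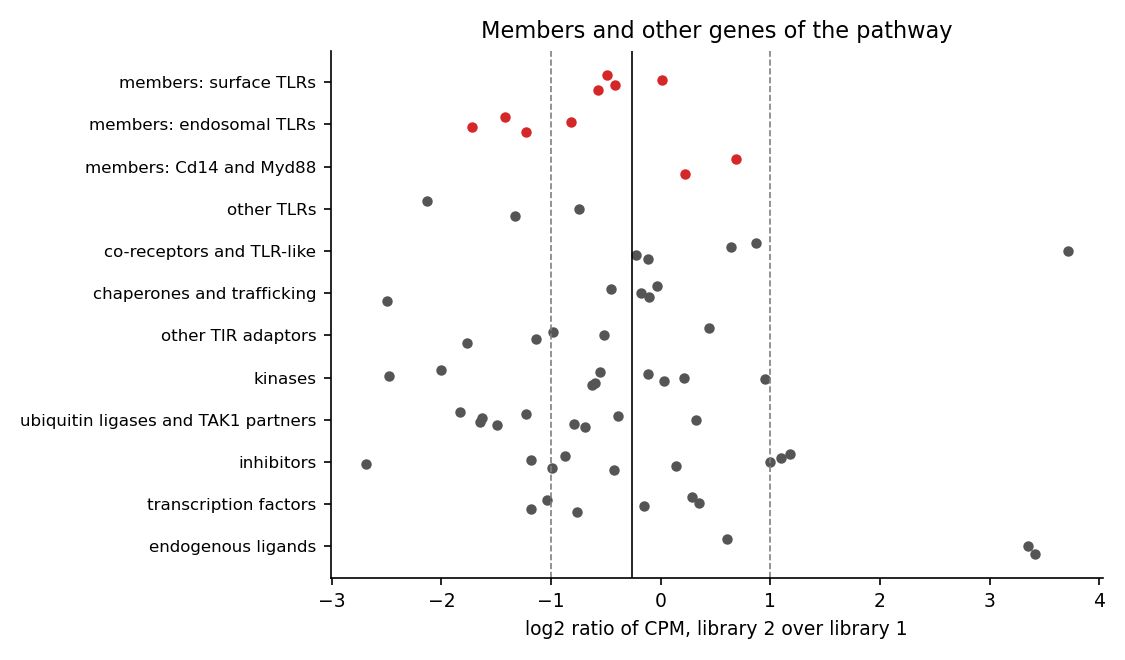
Log2 ratio of CPM, library 2 over library 1, for the 10 genes (red) and for 54 counted genes of the pathway by role (grey). The solid line is the median of all counted genes (−0.26), dashed lines mark 2-fold, and S100a8, S100a9 and Lbp lie farthest to the right.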

How the data were processed

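Microglia of 2 sham mice were profiled by bulk RNA-seq. The authors amplified cDNA (SMART-Seq HT Kit), made libraries by Nextera XT tagmentation, sequenced 75-base read pairs, aligned them to GRCm38 in HISAT2 and summarised genes in HTSeq. The deposited counts are whole numbers per Ensembl gene, not normalized. Versions, annotation release, the strand setting and the treatment of reads with several matches are not given in the sources used here. Starts were deposited counted from 0 and are given from 1.

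Levels were counts per 1000000 (CPM) with the mean and SD of 2 libraries. Replicates are separate mice. A count of 0 was read as allowing 3 counts. Genes were counted when each library reached 10 counts, and a ratio past 2-fold was called. Exon lengths came from GENCODE M21, which uses GRCm38 and matched 53706 of 53801 genes, and symbols matched 53620. For the spread between mice, edgeR 4.0.16 estimated a common dispersion (design without covariates, TMM, filterByExpr, 13455 genes). DESeq2 1.42.0 gave size factors. The ratio and the GC and length adjustment (10 bins each, or GC alone under 20 genes) were tested on simulated counts. Python 3.11.15, numpy 2.4.6, pandas 2.3.3, scipy 1.17.1, matplotlib 3.10.9 and R 4.3.3 were used. Members and lists were chosen with earlier results of these data known. Named genes were the members, all genes of 4 pathway lists, and in the other lists those past 2-fold and the highest per base. Ikbke was also named, as it passed 2-fold only in other scalings. No gene was named for likeness of pattern, since 2 libraries give none. 1 B cell gene is not reported here. The alternatives were other scalings, totals, filters and lengths, and leaving out each library.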

Additional observations from a re-analysis of the deposited data

How the results depend on the processing

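No paired analysis was possible because both libraries belong to 1 group. A mean of 2 libraries lies within 1 SD of each of them by arithmetic, so leaving one out does not bear on the stability of a mean. The summed level of the 10 genes was 2040 CPM, from 1996 to 2085 CPM with one library left out, and 2115 CPM with totals that leave out the neutrophil lists. The count of members past 2-fold was 3, and 1 after the GC and length adjustment. That of other pathway genes was 21, and 13 after this adjustment. The adjustment removes the trends over GC content and length together, and their parts were not told apart. Of the 10 places in the order of levels, 6 were kept without library 1 and 7 without library 2. The share of Cd14 in the family was 65.8%, from 57.2% to 74.3% with one library left out. The coefficient of variation was 0.477 with DESeq2 size factors and 0.550 without the filter on low counts. A ratio cannot be had with one library left out. Of the ratios of single genes under 6 alternatives, none of those past 2-fold changed sign, 4 no longer passed 2-fold (Tlr9 after the GC and length adjustment, Tlr13 after it and with TMM or DESeq2) and 1 newly passed it (Tlr7 relative to microglia markers).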
